A study of Mus musculus with 17 samples.

Results

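The vacuolar proton pump subunits described here are 10 genes of the 22462 in the files: Atp6v0a1, Atp6v0a2, Tcirg1 and Atp6v0d1 of the membrane sector, and Atp6v1a, Atp6v1b2, Atp6v1c1, Atp6v1e1, Atp6v1g2 and Atp6v1h of the peripheral sector. They were chosen as a list of gene symbols, with earlier results of these data known, and all 10 were found and passed the filter on low values. Polyadenylated RNA of mouse cerebral cortex was sequenced from 7 purified cell types with 2 libraries of each: neurons, microglia, astrocytes, endothelial cells, and the oligodendrocyte lineage at its precursor, newly formed and myelinating stages, and from whole cortex, with 3 libraries. All 8 groups share the strain given as FVN/Swiss, and no group carried a transgene, a deletion or a treatment in the labels. The labels give neither the ages of the mice, the markers used to purify the cells, nor the number of mice behind each library. The p-values therefore speak only to variation among these libraries, and that variation may be technical.

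The vacuolar proton pump is a rotary motor that spends ATP in the cytosol to push protons into lysosomes, endosomes, the Golgi and synaptic vesicles. Its peripheral V1 sector binds and splits ATP, its membrane V0 sector carries the protons, and the a subunit of V0 both forms the proton path and steers the pump to a given compartment. In neurons the proton gradient drives the loading of transmitter into synaptic vesicles, and in phagocytes it acidifies the lysosomes in which engulfed material is degraded. Several subunits exist as a few paralogous genes, so a cell can assemble pumps of different makeup from the same parts list.

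Levels are FPKM, fragments scaled to transcript length and to the mapped fragments of the library, as the authors deposited them, with values under 0.1 listed as 0.1. Fold values are differences of log2(FPKM + 1) with their standard error, from limma fitted over all 17 libraries and 14011 genes. A gene is said to be called, or to rise or fall, where its Benjamini-Hochberg adjusted p over all tested genes was under 0.05 and the log2 difference was at least 1. The FPKM of a library summed to 205621 at the lowest, in neurons, and to 389838 at the highest, in microglia. Replicate libraries correlated at r = 0.977 to 0.998 across genes. Marker RNA of other types was found in several libraries. Within the oligodendrocyte lineage, the 6 myelinating markers summed to 3230 and 2021 FPKM in newly formed cells, against 7886 and 6836 FPKM in myelinating cells. The precursor libraries were the highest of the other purified types in microglia, neuron, astrocyte and fibroblast markers, and precursor replicate 1 also in erythroid markers, which summed to 2082 FPKM. There the 6 microglia markers summed to 473 and 225 FPKM, against 7389 and 10568 FPKM in microglia, and the 6 neuron markers summed to 73.9 and 70.6 FPKM, against 1013 and 1137 FPKM in neurons. In bulk libraries, fewer cells of a type and less RNA per cell cannot be told apart.

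The clearest pattern was an exchange of paralogs. Of the summed a subunit FPKM, Atp6v0a1 made up 93.0% in neurons, Tcirg1 75.3% in microglia and Atp6v0a2 61.5% in newly formed oligodendrocytes. Neurons also held Atp6v1g2 at a level seen in no other purified type, and held Atp6v0a1 mainly as an isoform that was a minor one in the other purified types. Between the highest and the lowest type mean, the members differed 102-fold for Tcirg1, 29.2-fold for Atp6v1g2, 11.8-fold for Atp6v0a2 and 5.84-fold for Atp6v0a1, and from 2.49-fold to 4.10-fold for the other 6.

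Set against the mean of the other 6 purified types, 2 of the 10 members rose in neurons, where 18.9% of all tested genes rose, and 2 fell, where 10.3% fell. Microglia had 3 members that rose and 0 that fell, where 15.2% of genes rose and 28.1% fell. Of the members in astrocytes, 0 rose and 4 fell, where 17.5% of genes rose and 13.6% fell. In precursors 0 rose and 0 fell, where 16.3% and 2.30% of genes did so. Newly formed oligodendrocytes had 1 that rose and 0 that fell, where 9.06% and 9.50% did so. Myelinating oligodendrocytes had 0 in either direction, where 6.07% of genes rose and 31.0% fell. Endothelial cells had 0 that rose and 3 that fell, where 18.5% and 18.0% did so. In whole cortex, set against the mean of the 7 purified types, 1 member rose and 0 fell, where 17.3% and 0.785% of genes did so. The counts of 0 rest on the minimum difference in part. At an adjusted p alone, limma called 2 members lower in microglia and 2 higher in precursors, where 55.2% and 45.9% of genes were so. In myelinating oligodendrocytes 1 was then higher and 3 were lower, where 12.6% and 66.3% of genes were so. In newly formed oligodendrocytes 2 were lower, where 4207 of 14011 genes were so, and in whole cortex 2, where 10.6% were so. Between the 21 pairs of purified types, 76 of 210 member comparisons were called, or 36.2%, against 39.3% over all genes. Higher in 1 type than in each of the other 6 were 2 of the 10 members, Tcirg1 in microglia and Atp6v1g2 in neurons, where 25.3% of all genes were so. The count of called pairs was thus near that of genes at large, while single groups lay on either side of their background, with more members that fell in astrocytes and fewer that fell in microglia and in myelinating oligodendrocytes. With 10 members, each of these counts rests on a few genes.

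**Figure D1:**
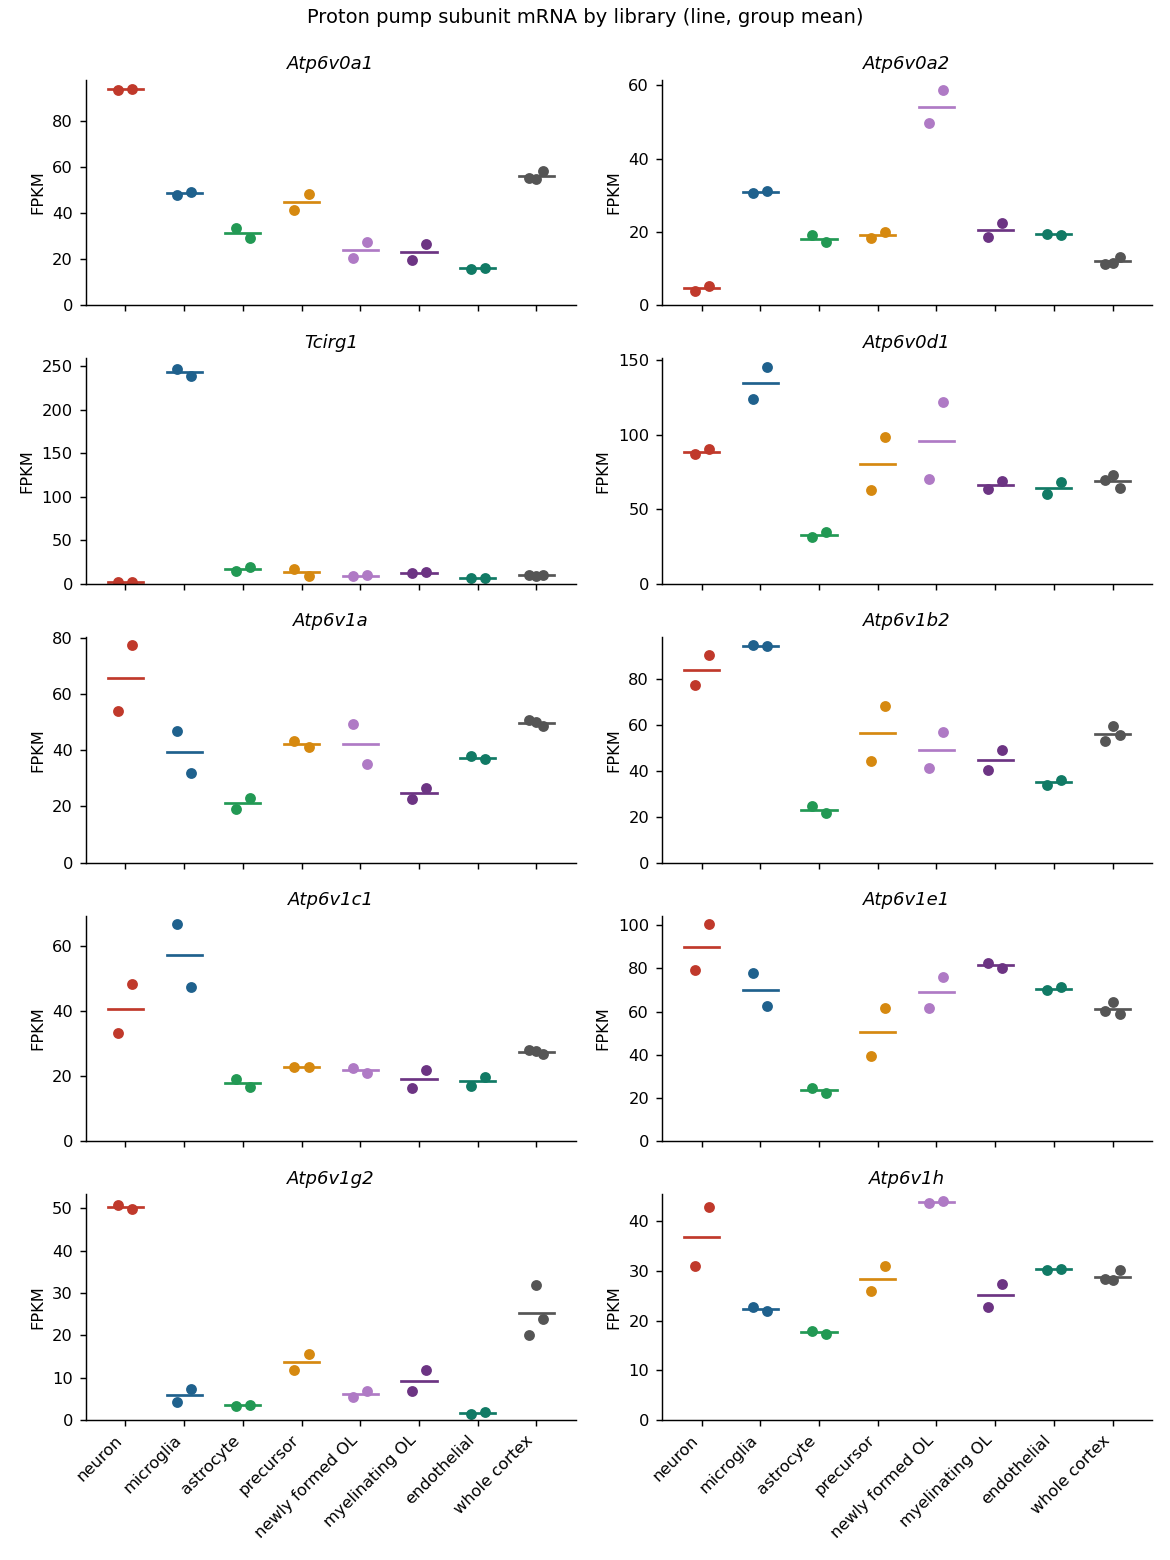
Level of each of the 10 pump subunits in FPKM (vertical axis, from 0) in the 17 libraries, by group (horizontal axis; OL, oligodendrocyte). Each point is 1 library and each line a group mean; Tcirg1 stands at 239 and 247 FPKM in microglia and at 2.17 to 19.0 FPKM in the other purified libraries.

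Atp6v0a1 encodes the a1 subunit, the form known from nerve terminals and synaptic vesicles. Its level was 93.3 and 93.9 FPKM in neurons, against 15.9 to 49.3 FPKM, with a median of 28.2 FPKM, in the 12 other purified libraries. The 2 neuron libraries lay above all of these with no overlap. The log2 difference from the mean of the other 6 types was 1.66 ± 0.13 (SE; limma adjusted p = 6.3e-08). Microglia came next with 48.0 and 49.3 FPKM, 0.93 below neurons on the log2 scale (limma adjusted p = 0.00021 for that pair), so the a1 RNA of neurons was higher than that of each other type but by less than the minimum of 1 from the nearest. Precursors followed with 41.1 and 48.1 FPKM, with no difference from microglia beyond the spread (adjusted p = 0.53). Astrocytes had 33.6 and 29.2 FPKM. Newly formed oligodendrocytes had 20.7 and 27.3 FPKM and myelinating oligodendrocytes 19.4 and 26.6 FPKM. Between neighbours in this order, precursors stood above astrocytes by 0.49 (adjusted p = 0.026) and myelinating oligodendrocytes above endothelial cells by 0.48 (adjusted p = 0.024), and no difference between the other neighbours passed the test. Endothelial cells were lowest with 15.9 and 16.1 FPKM, a fall of 1.23 ± 0.13 from the mean of the other types (limma adjusted p = 1.1e-06). Whole cortex held 55.2, 54.7 and 58.3 FPKM, between neurons and the remaining types.

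The form of Atp6v0a1 differed between types more sharply than its level. In neurons the RefSeq isoform NM_016920 had 86.7 and 87.6 FPKM, or 92.9% and 93.1% of the gene. The isoform NM_001243050 was listed at 0.1 FPKM, the lowest value of the files, in both neuron libraries. In the 12 other purified libraries the order was turned round: NM_001243050 made up 72.5% to 89.7% of the gene, and NM_016920 made up 0.342% to 19.3%. NM_001243050 was at 41.4 and 35.8 FPKM in microglia, at 30.1 and 26.2 FPKM in astrocytes and at 11.98 and 11.91 FPKM in endothelial cells. In whole cortex NM_016920 averaged 42.6 ± 1.4 FPKM and NM_001243050 averaged 7.16 ± 0.99 FPKM (SD, n = 3), so both forms were present there. The largest difference in isoform share between neurons and the mean of the other 6 types was 85.6 percentage points, and limma's test of isoform use with Simes combination gave an adjusted p of 1.7e-20 over 2187 genes with several isoforms. Of these genes 26.5% were called in the same comparison, with a minimum of 20 points. In the 6 pairs with neurons the largest share difference was 76.0 to 92.4 points, against 3.08 to 16.8 points in the 15 pairs among the other types.

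GENCODE pairs both NM_016920 and NM_001243049 with 1 transcript of 22 exons, so these are not told apart in that annotation, and the presence of the exon in NM_016920 rests on this pairing; NM_001243049 made up 3.79% ± 1.15 of the gene in neurons (SD, n = 2). That transcript holds an exon of 18 bases that the transcript paired with NM_001243050 skips. The exon is number 19 of 22, at chr11:101049459-101049476 on the plus strand of GRCm38, in the coding region, and 18 bases are 6 codons with 0 bases left over, so the reading frame is kept. It lies between an exon that ends at 101048525 and one that starts at 101055026. The 2 transcripts also differ in where they start, at 101009452 and at 101011821. The sequences are shown because this exon is where the coding regions of the paired transcripts differ; the exon is in capitals and the flanking exons are in lower case.
Atp6v0a1 with the exon: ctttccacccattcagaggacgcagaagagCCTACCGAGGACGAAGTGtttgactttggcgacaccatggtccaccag
Atp6v0a1 without the exon: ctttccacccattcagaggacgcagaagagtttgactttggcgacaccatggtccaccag

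A further isoform, NM_001243051, lacks that exon but extends exon 6 at its 5′ end by 21 bases, or 7 codons, at chr11:101026660-101026680. It made up 20.4% and 20.8% of Atp6v0a1 in endothelial cells, against 2.09% to 14.6% in the glial libraries and 2.43% and 3.78% in neurons. The 2 endothelial libraries were thus above all other purified libraries in this share, although their level of 3.26 and 3.37 FPKM was no higher than the 3.75 and 7.20 FPKM of microglia. Its added bases, in capitals, are shown with 30 bases on either side.
Atp6v0a1 with the longer exon: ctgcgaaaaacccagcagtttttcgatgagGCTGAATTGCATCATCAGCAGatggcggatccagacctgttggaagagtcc

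The share of NM_016920 outside neurons was not even. It was 11.2% and 15.7% in precursors, where the median neuron marker stood at 7.61% and 9.66% of its level in neurons. In myelinating oligodendrocytes the share was 14.8% and 19.3%, with neuron markers at 1.88% and 5.92%. Microglia had 1.29% and 11.03% with neuron markers at 1.16% and 1.59%, and endothelial cells had 0.624% and 0.616%, which is the listing at 0.1 FPKM, with neuron markers at 1.41% and 1.32%. All 6 neuron markers were above 0.1 FPKM in every library. The part of neuron RNA in these shares was not tested.

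**Figure D2:**
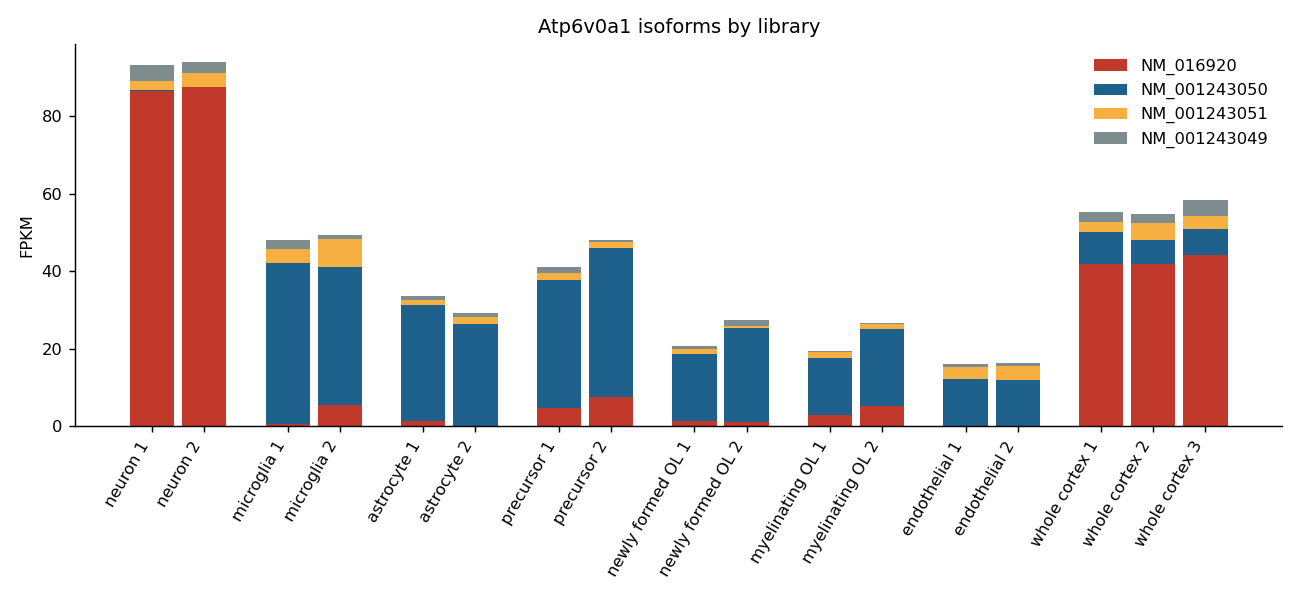
Stacked FPKM (vertical axis, from 0) of the 4 Atp6v0a1 isoforms in each of the 17 libraries (horizontal axis; OL, oligodendrocyte). NM_016920 fills 92.9% and 93.1% of the bar in neurons, and NM_001243050 fills 72.5% to 89.7% in the other purified libraries.

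Atp6v0a2 encodes the a2 subunit, known from the Golgi and endosomes. It went opposite to a1 in neurons, with 3.86 and 5.34 FPKM, against 17.2 to 58.8 FPKM in the 12 other purified libraries. The neuron libraries were below all of these, a fall of 2.22 ± 0.12 on the log2 scale (limma adjusted p = 1.8e-09). Newly formed oligodendrocytes were highest with 49.6 and 58.8 FPKM, against a median of 19.2 FPKM and at most 31.2 FPKM in the 12 other purified libraries. Their log2 difference was 1.64 ± 0.12 (limma adjusted p = 8.9e-08). The next type was microglia at 30.8 and 31.2 FPKM, lower by 0.78 (adjusted p = 7.0e-04). Myelinating oligodendrocytes with 18.5 and 22.3 FPKM, endothelial cells with 19.5 and 19.3 FPKM, precursors with 18.3 and 20.1 FPKM and astrocytes with 19.1 and 17.2 FPKM did not differ between neighbours in this order. Whole cortex had 11.4, 11.6 and 13.1 FPKM.

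Tcirg1 encodes the a3 subunit, best known from osteoclasts, where its loss in mouse and human causes osteopetrosis, and from lysosomes. It had 247 and 239 FPKM in microglia, against 2.17 to 19.0 FPKM, with a median of 10.1 FPKM, in the 12 other purified libraries. Every microglia library was thus more than an order of magnitude above every other purified library. The log2 difference was 4.62 ± 0.16 (limma adjusted p = 3.9e-12), and 3.79 ± 0.21 from astrocytes, the next type. Astrocytes had 14.6 and 19.0 FPKM, myelinating oligodendrocytes 12.3 and 13.4 FPKM, precursors 16.8 and 9.67 FPKM, newly formed oligodendrocytes 8.95 and 10.5 FPKM and endothelial cells 6.68 and 7.16 FPKM. No neighbours among these 5 types differed (adjusted p at least 0.087), but endothelial cells fell by 1.15 ± 0.16 from the mean of the other types (limma adjusted p = 1.4e-05). Neurons were lowest with 2.57 and 2.17 FPKM, a fall of 2.59 ± 0.16 (limma adjusted p = 4.0e-09), and were 1.23 below endothelial cells (adjusted p = 9.4e-05). Whole cortex had 9.79, 9.04 and 10.4 FPKM.

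Microglia markers are given beside the low values of Tcirg1. The 6 markers summed to 6.13 and 4.69 FPKM in astrocytes, with a median marker at 0.0690% and 0.0523% of its microglial level. Tcirg1 in astrocytes averaged 16.8 ± 3.1 FPKM, against 243 ± 5 FPKM in microglia (SD, n = 2 each). In the precursor libraries the median marker stood at 7.18% and 3.08%, where Tcirg1 was at 16.8 and 9.67 FPKM. The part of microglial RNA in the values of both types was not tested. Among the 3 isoforms of Tcirg1, which have different transcript starts and the same coding length, NM_001136091 made up 88.6% to 98.1% of the gene in the 12 purified libraries other than neurons, and 92.0% and 94.2% in microglia. No isoform share of Tcirg1 differed by the minimum of 20 points in microglia (largest difference 1.21 points).

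As a share of the summed FPKM of the 4 a subunit genes, Tcirg1 made up 74.8% and 75.7% in microglia, against 2.14% to 29.0%, with a median of 16.3%, in the 12 other purified libraries. The difference in means was 59.4 points, with an exact two-sided permutation p of 0.0220, the smallest that 14 libraries in groups of 2 and 12 can give. This takes the 12 libraries of the other types as exchangeable. Over the 7 type means the exact permutation p was 0.286, the smallest possible. With types as the unit no difference could pass whatever the values, so that test decides nothing. Atp6v0a1 made up 93.0% ± 0.7 of the sum in neurons and Atp6v0a2 made up 61.5% ± 1.3 in newly formed oligodendrocytes (SD, n = 2 each). Precursors and astrocytes held a1 as 57.5% ± 5.4 and 47.2% ± 3.7, and myelinating oligodendrocytes held a1 and a2 at 40.6% ± 2.8 and 36.3% ± 0.7. In endothelial cells a2 led with 45.7% ± 0.8. The sum itself was 323 ± 4 FPKM in microglia and 101 ± 1 FPKM in neurons, and ran from 42.4 to 88.3 FPKM in the means of the other 5 types. Atp6v0a4, the kidney and inner ear form, was at 0.1 to 0.576 FPKM in all 17 libraries.

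**Figure D3:**
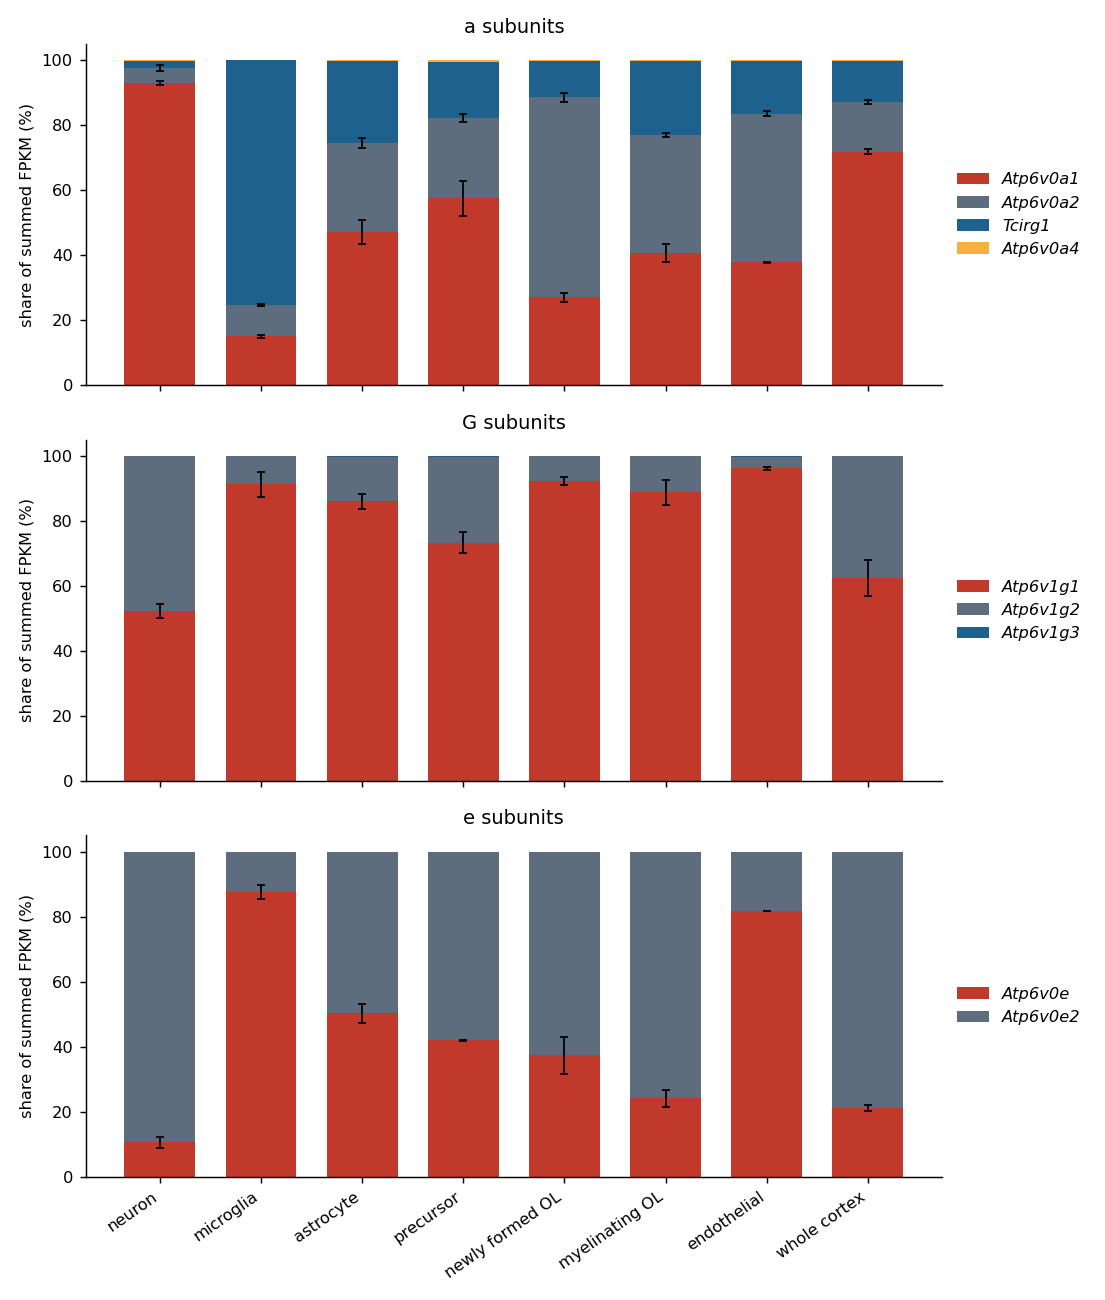
Mean share of each gene in the summed FPKM of its subunit family, in percent (vertical axis, from 0), for the a, G and e subunits in the 8 groups (horizontal axis; OL, oligodendrocyte). Error bars are 1 SD over 2 libraries, or 3 for whole cortex; Tcirg1 fills 75.3% of the a subunits in microglia and Atp6v0a1 93.0% in neurons.

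Atp6v0d1 encodes the d subunit, the collar that joins the proton ring of V0 to the central stalk of V1. It was at 124 and 146 FPKM in microglia and at 31.2 and 34.5 FPKM in astrocytes, and these were the 2 ends of its range. Astrocytes lay below all other purified libraries, a fall of 1.34 ± 0.18 (limma adjusted p = 1.8e-05). Microglia lay above all of them, yet the log2 difference of 0.99 ± 0.18 was just under the minimum of 1 (adjusted p = 1.9e-04) and reached it under 8 alternatives, 6 of which left out 1 library, at 1.00 to 1.24. Neurons had 87.1 and 90.2 FPKM. The library pairs of newly formed oligodendrocytes, with 70.5 and 122 FPKM, and of precursors, with 63.0 and 98.4 FPKM, were wide apart. No neighbours from microglia down to endothelial cells, at 60.3 and 68.7 FPKM, differed beyond their spread. Its paralog Atp6v0d2, known from osteoclasts, was at 0.347 FPKM in 1 microglia library and at 0.1 FPKM in the other 16.

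The other V0 subunits showed the same kind of exchange in the e subunit, a small membrane protein. Atp6v0e had 13.3 and 13.6 FPKM in neurons, against 127 and 152 FPKM in microglia and 115 and 123 FPKM in endothelial cells. Its log2 difference from the other types was -2.27 ± 0.17 in neurons, 1.55 ± 0.17 in microglia and 1.29 ± 0.17 in endothelial cells (limma adjusted p = 2.7e-08, 1.0e-06 and 7.2e-06). Atp6v0e2, its paralog known from brain, was at 129.8 and 103 FPKM in neurons, against 15.8 and 25.0 FPKM in microglia and 25.6 and 27.4 FPKM in endothelial cells. It rose by 1.08 ± 0.21 in neurons and fell by 1.81 ± 0.21 in microglia and by 1.35 ± 0.21 in endothelial cells. Atp6v0e2 thus made up 89.5% ± 1.7 of e subunit FPKM in neurons, 12.6% ± 2.1 in microglia and 18.2% ± 0.01 in endothelial cells (SD, n = 2 each). Its share was 76.0% ± 2.6 in myelinating and 62.6% ± 5.7 in newly formed oligodendrocytes, 58.0% ± 0.2 in precursors and 49.8% ± 3.0 in astrocytes. Atp6v0e2 also rose in precursors, at 101 and 164 FPKM, by 1.26 ± 0.21. In newly formed oligodendrocytes, at 84.8 and 146 FPKM, it rose by 1.02 ± 0.21. Atp6v0e fell by 1.14 ± 0.17 in myelinating oligodendrocytes. This pair was looked at as a share after its values were seen, and no test of the share was made.

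Atp6v1a and Atp6v1b2 encode the catalytic A subunit and the B subunit that alternate in the ATP-splitting ring. Atp6v1a was at 53.9 and 77.4 FPKM in neurons, against 19.3 to 49.4 FPKM in the 12 other purified libraries. Neurons lay above all of these, with a log2 difference of 0.94 ± 0.16 that did not reach the minimum of 1 (limma adjusted p = 1.6e-04). The lowest types were myelinating oligodendrocytes with 22.8 and 26.5 FPKM and astrocytes with 19.3 and 23.1 FPKM, which did not differ from each other (adjusted p = 0.41). Atp6v1b2 was at 94.4 and 94.0 FPKM in microglia, a rise of 1.06 ± 0.16 (limma adjusted p = 2.6e-05), and at 77.3 and 90.3 FPKM in neurons, which did not differ from microglia (adjusted p = 0.47). Astrocytes were lowest for Atp6v1b2 as well, with 24.4 and 21.5 FPKM, and fell by 1.26 ± 0.16 (limma adjusted p = 7.3e-06). Endothelial cells came next with 33.9 and 35.8 FPKM. Atp6v1b1, the kidney form of the B subunit, was listed at 0.1 FPKM in all 17 libraries.

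Atp6v1c1 encodes the C subunit, which clamps the stalks together and leaves when the pump comes apart, and Atp6v1e1 encodes the E subunit of those stalks. Atp6v1c1 was at 66.9 and 47.5 FPKM in microglia and at 33.2 and 48.5 FPKM in neurons, against 16.4 to 22.8 FPKM in the 10 other purified libraries. Its rise in microglia was 1.29 ± 0.15 (limma adjusted p = 3.0e-06), and its log2 difference of 0.74 ± 0.15 in neurons did not reach the minimum of 1. The 5 remaining types did not differ between neighbours. Atp6v1e1 was at 24.7 and 22.5 FPKM in astrocytes, against 39.5 to 100.4 FPKM in the 12 other purified libraries. That fall of 1.54 ± 0.16 (limma adjusted p = 9.0e-07) was the call in astrocytes that held under every alternative. Neurons with 79.3 and 100.4 FPKM and myelinating oligodendrocytes with 82.4 and 80.2 FPKM were highest, and no neighbours from neurons down to precursors differed. Their tissue-restricted paralogs Atp6v1c2 and Atp6v1e2 were at 0.1 to 0.318 FPKM in all libraries.

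Atp6v1g2 encodes the G2 subunit of the stalk, a neuronal paralog of the widely expressed G1. Its level was 50.9 and 49.9 FPKM in neurons, against 1.52 to 15.5 FPKM, with a median of 6.11 FPKM, in the 12 other purified libraries. The 2 neuron libraries stood more than 3 times above the highest of these. The log2 difference was 2.96 ± 0.21 (limma adjusted p = 1.5e-08), and 1.82 ± 0.27 from the next type, the precursors, at 11.8 and 15.5 FPKM. Myelinating oligodendrocytes had 6.83 and 11.7 FPKM, newly formed oligodendrocytes 5.38 and 6.87 FPKM and microglia 4.34 and 7.28 FPKM, with no difference between neighbours from precursors to astrocytes. Atp6v1g2 was lowest in astrocytes, with 3.27 and 3.63 FPKM and a fall of 1.16 ± 0.21, and in endothelial cells, with 1.52 and 1.94 FPKM and a fall of 1.99 ± 0.21 (limma adjusted p = 1.8e-04 and 7.6e-07). Whole cortex had 20.2, 31.9 and 23.9 FPKM, and this was the member that rose there, by 1.55 ± 0.17 (limma adjusted p = 2.6e-06). The 6 neuron markers summed to 73.9 and 70.6 FPKM in precursors. In myelinating oligodendrocytes they summed to 20.02 and 64.4 FPKM, and in newly formed ones to 17.3 and 17.4 FPKM. Their sums were 15.1 and 19.2 FPKM in microglia and 6.22 and 13.8 FPKM in astrocytes. Endothelial cells, where Atp6v1g2 was lowest, had 27.4 and 28.7 FPKM. The part of neuron RNA in Atp6v1g2 was not tested.

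Of the summed FPKM of the 3 G subunit genes, Atp6v1g2 made up 46.2% and 49.2% in neurons, against 3.27% to 28.8%, with a median of 9.82%, in the 12 other purified libraries. The difference in means was 35.9 points (exact two-sided permutation p = 0.0220 over libraries and 0.286 over the 7 type means, each the smallest possible). With types as the unit no difference could pass, so that test decides nothing. Atp6v1g1 itself was at 59.1 and 51.5 FPKM in neurons and did not differ from the mean of the other types (0.17 ± 0.13, limma adjusted p = 0.25), so G2 stood beside G1 in neurons and did not stand in its place. Atp6v1g1 was called lower in astrocytes, by 1.33 ± 0.13. In GENCODE on GRCm38, exons of Atp6v1g2 share bases with those of Nfkbil1 on the opposite strand, and the sources used here do not say whether counting used strand. Nfkbil1 averaged 6.41 ± 0.74 FPKM in neurons, against 13.4 ± 0.6 FPKM in endothelial cells and 14.2 ± 1.9 FPKM in microglia (SD, n = 2 each); its part in the level of Atp6v1g2 was not tested.

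Atp6v1h encodes the H subunit, which joins V1 to V0 and keeps free V1 from splitting ATP. It varied least of the members, from 17.9 and 17.4 FPKM in astrocytes to 43.6 and 44.1 FPKM in newly formed oligodendrocytes. No 2 neighbours in its order of types differed (adjusted p at least 0.087), and it was called in 2 of the 21 pairs of types. The log2 difference was 0.73 ± 0.12 in newly formed oligodendrocytes (limma adjusted p = 2.0e-04) and -0.75 ± 0.12 in astrocytes (limma adjusted p = 1.1e-04), both under the minimum of 1. Neurons had 31.0 and 42.8 FPKM and microglia 22.7 and 22.0 FPKM, a log2 difference of neurons from microglia of 0.68 (limma adjusted p = 0.0017). An exon of Rgs20 overlaps it on the opposite strand, and Rgs20 was highest in astrocytes, at 55.8 ± 3.0 FPKM (SD, n = 2), where Atp6v1h was lowest; its part in the level of Atp6v1h was not tested.

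**Figure D4:**
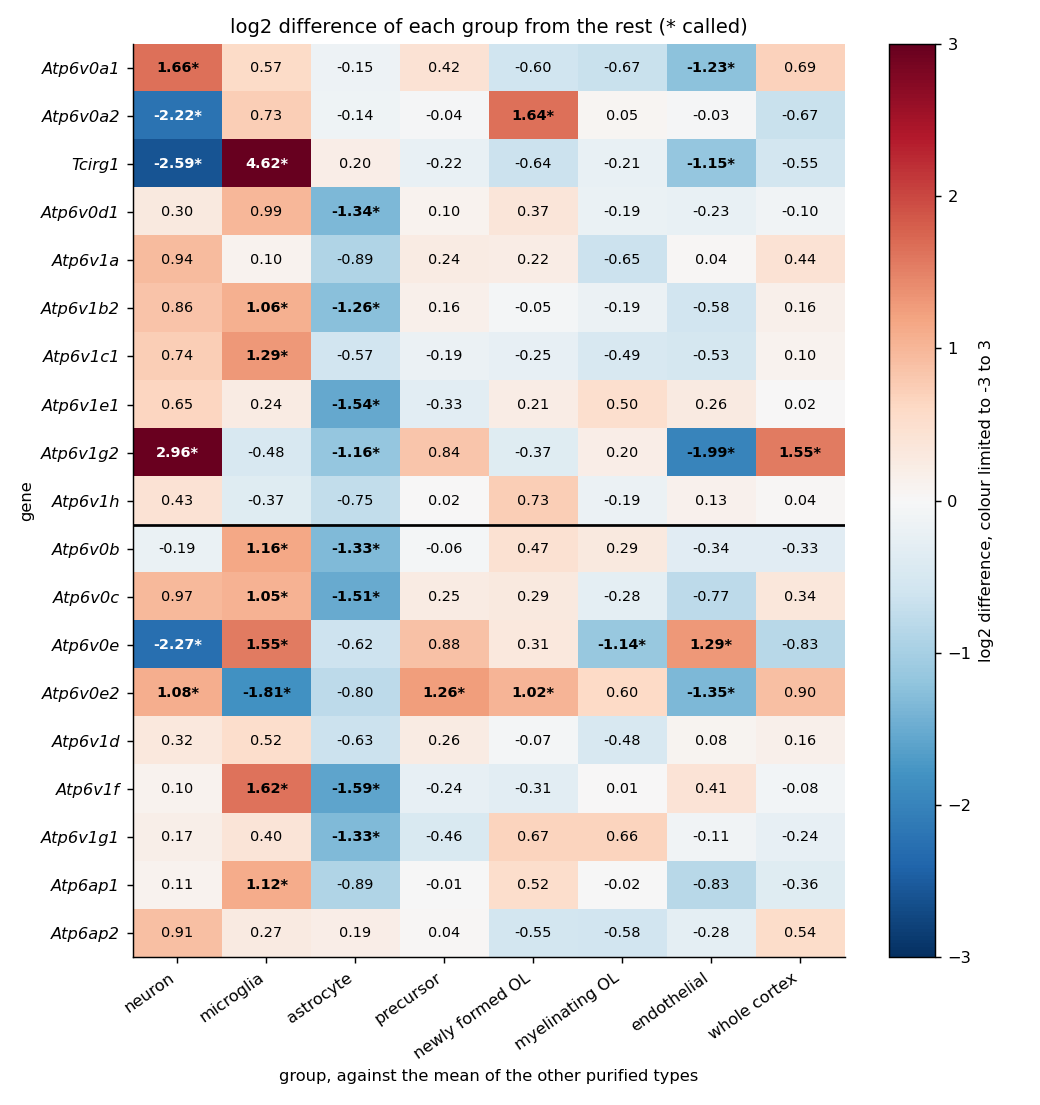
Log2 difference of each group from the mean of the other purified types (columns; OL, oligodendrocyte) for the 10 members and, below the line, the 9 other tested subunits (rows); colour runs from blue for lower to red for higher and is limited to -3 and 3. An asterisk marks a call; Tcirg1 in microglia has the highest value, 4.62.

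By type, microglia had 5 of the 9 other tested subunits that rose and 1, Atp6v0e2, that fell, where 15.2% of all genes rose and 28.1% fell. Those that rose were Atp6v0b and Atp6v0c of the proton ring (1.16 ± 0.16 and 1.05 ± 0.17), Atp6v0e, the stalk subunit Atp6v1f (1.62 ± 0.12) and the accessory protein Atp6ap1 (1.12 ± 0.16). Atp6v1f was also higher in microglia than in each other type, with 127 and 129 FPKM in microglia and 17.7 to 66.9 FPKM in the 12 other purified libraries. In neurons 1 of these 9 rose, Atp6v0e2, and 1 fell, Atp6v0e, where 18.9% and 10.3% of all genes did so. In astrocytes 4 of the 9 fell, Atp6v0b, Atp6v0c, Atp6v1f and Atp6v1g1, and 0 rose, where 13.6% and 17.5% did so. The 6 further subunits of the list of 15 did not pass the filter on low values. Reads of Atp6v0c may be split with its copies Atp6v0c-ps1 and Atp6v0c-ps2, so its level of 2.46 to 18.7 FPKM is uncertain. The summed FPKM of the 10 members was 746 ± 22 in microglia, 557 ± 63 in neurons and 206 ± 2 in astrocytes (SD, n = 2 each). Tcirg1 alone averaged 243 FPKM in microglia and 2.37 FPKM in neurons. All genes summed to 367933 and 389838 FPKM in the microglia libraries, and to 205621 and 218287 FPKM in the neuron libraries. The member sums therefore do not rank microglia and neurons for the pump as a whole.

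How FPKM were scaled matters for these type-wide counts. With all libraries scaled to a common sum of FPKM, the median log2 difference of all genes moved by 0.32 in neurons, -0.30 in microglia and 0.28 in astrocytes, and the members moved with it. Under that scaling 6 members rose in neurons, with Atp6v1a, Atp6v1b2, Atp6v1c1 and Atp6v1e1 added, 1 rose in microglia, Tcirg1, and 1 fell in astrocytes, Atp6v1e1. Of all genes tested under it, 27.5% rose in neurons, 10.5% rose in microglia and 9.86% fell in astrocytes. The paralog calls of Atp6v0a1, Atp6v0a2, Tcirg1 and Atp6v1g2 in neurons, of Tcirg1 in microglia and of Atp6v0a2 in newly formed oligodendrocytes kept their direction and their call under all scalings tried. Without neuron replicate 1, the log2 difference in neurons was 1.20 for Atp6v1a and 1.00 for Atp6v1c1. Without precursor replicate 1, that of Atp6v1g2 in precursors was 1.02. These fits leave 1 library in the type, so no calls are given for them.

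Along the oligodendrocyte lineage, from precursors through newly formed to myelinating cells, Atp6v0a2 averaged 19.2 ± 1.3, 54.2 ± 6.5 and 20.4 ± 2.7 FPKM (SD, n = 2 each). It rose by 1.45 ± 0.16 in newly formed cells against precursors and fell by 1.37 ± 0.16 in myelinating cells against newly formed cells (limma adjusted p = 7.1e-06 and 2.0e-05). Atp6v0a1 averaged 44.6 ± 4.9, 24.0 ± 4.6 and 23.0 ± 5.1 FPKM over the same stages, and Atp6v1h 28.5 ± 3.6, 43.9 ± 0.3 and 25.1 ± 3.3 FPKM. The log2 difference of newly formed cells from precursors was -0.88 ± 0.17 for Atp6v0a1 and 0.61 ± 0.16 for Atp6v1h, under the minimum of 1 in both. Atp6v1g2 fell by 1.04 ± 0.27 in the same comparison (limma adjusted p = 0.0056), with the neuron markers given above.

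Genes that work with the pump did not all follow it. Of 12 assembly and regulation genes, 5 rose in neurons and 0 fell, with a median log2 difference of 0.56, against 0.10 over all tested genes, of which 18.9% rose and 10.3% fell. Examples are Dmxl2 (1.89 ± 0.28) and Wdr7 (1.10 ± 0.14), which form the rabconnectin complex that reassembles the pump. Tbc1d24 (1.84 ± 0.14) and Ncoa7 (1.87 ± 0.18), which carry a TLDc domain known to bind the pump, also rose. The neuron libraries were wide apart for Dmxl2, at 15.5 ± 8.8 FPKM (SD, n = 2), against at most 11.3 FPKM in the 12 other purified libraries. In microglia 1 rose, Rogdi, a further rabconnectin partner, with 122 ± 25 FPKM (SD, n = 2) and a difference of 2.84 ± 0.15, and 6 fell, among them Oxr1 (-2.32 ± 0.24), Vma21, an assembly factor of V0 (-1.94 ± 0.21), and Ncoa7 (-1.42 ± 0.18); the median was -0.82, against -0.44 over all tested genes, of which 15.2% rose and 28.1% fell.

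The same shares of all genes apply to the lists that follow. Of 18 genes for lysosomal membrane proteins and hydrolases, 14 rose and 0 fell in microglia, with a median log2 difference of 2.22, against -0.44 over all tested genes. Ctsd, which encodes the protease cathepsin D, had 9648 ± 1920 FPKM in microglia (SD, n = 2), with a difference of 5.83 ± 0.17. Ctsz, which encodes the protease cathepsin Z, had 861 ± 62 FPKM in microglia (SD, n = 2), against 5.83 to 40.0 FPKM in the 12 other purified libraries. In neurons 0 of the 18 rose and 11 fell, with a median of -1.49, against 0.10 over all tested genes, among them Ctsz (-2.63 ± 0.12) and Npc2, a carrier of cholesterol (-2.14 ± 0.11). Of 11 tested genes for vesicle loading and vesicle membrane proteins, 9 rose and 0 fell in neurons, with a median of 2.59. Slc17a6, a vesicular glutamate transporter, and Slc32a1, the transporter of GABA and glycine, had 62.3 ± 16.6 and 48.6 ± 15.0 FPKM in neurons (SD, n = 2 each) and at most 0.174 and 1.56 FPKM in the 12 other purified libraries. In microglia 2 of these 11 rose, Slc17a7 (1.86 ± 0.49) and Slc30a3 (1.59 ± 0.26), and 1 fell, Sv2a (-2.03 ± 0.13). The 2 that rose are neuronal genes. Slc17a7 averaged 23.5 ± 11.2 FPKM in microglia (SD, n = 2), against at most 39.1 FPKM in the 12 other purified libraries. Slc30a3 averaged 4.08 ± 1.67 FPKM (SD, n = 2), against at most 2.72 FPKM. The 6 neuron markers summed to 15.1 and 19.2 FPKM in the microglia libraries, with a median marker at 1.16% and 1.59% of its neuron level. The part of neuron RNA in both rises was not tested. Of 11 genes, mostly lysosomal ion channels and with 1 related transcription factor, 3 rose and 1 fell in microglia, and 0 were called in neurons. The 3 were Clcn7 (1.35 ± 0.12), the chloride and proton exchanger of lysosomes, and the cation channels Tpcn1 (1.42 ± 0.14) and Tpcn2 (1.20 ± 0.14), and Clcn3 fell by 2.83 ± 0.18. Lamtor1, Tfeb and Tfe3 were not analysed here, so the calls in these lists say nothing of them.

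In the other groups, calls in these lists are given beside those of all genes. Of all tested genes, 18.5% rose and 18.0% fell in endothelial cells, 6.07% rose and 31.0% fell in myelinating oligodendrocytes, 17.5% rose and 13.6% fell in astrocytes, 16.3% rose and 2.30% fell in precursors, 9.06% rose and 9.50% fell in newly formed oligodendrocytes, and 17.3% rose and 0.785% fell in whole cortex. Of the 18 lysosomal genes, 1 rose and 8 fell in endothelial cells, 2 rose and 8 fell in myelinating oligodendrocytes, and 0 rose and 2 fell in whole cortex. In astrocytes 2 rose and 2 fell, in precursors 3 rose and 0 fell, and in newly formed oligodendrocytes 3 rose and 3 fell. Of the 11 vesicle genes, 8 rose in whole cortex and 0 fell, while 5 fell in endothelial cells and 4 in astrocytes, with 0 that rose in either. Precursors and myelinating oligodendrocytes each had 2 vesicle genes that rose and 0 that fell, and newly formed oligodendrocytes had 1 that rose and 3 that fell. Of the 12 assembly genes, 5 fell in myelinating oligodendrocytes and 0 rose, and at most 2 were called in either direction in each of the other groups not yet given. Of the 11 channel and factor genes, at most 2 were called in either direction in each of those groups.

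Among 7857 other genes with a mean of at least 5 FPKM, the 5 whose log2(FPKM + 1) correlated best with Tcirg1 over the 14 purified libraries were Dnase2a (r = 0.972), Pnpla7, Ctsz, Ctsd and Csf1 (r = 0.952). With Atp6v1g2 they were Syn1 (r = 0.985), Syp, Shank1, Olfm1 and Nptxr (r = 0.975). With Atp6v0a1 they were Cib2 (r = 0.985), Rab11b, Fam131a, Pip4k2b and Fbxl19 (r = 0.947), and with the mean of the 10 members Vps33a (r = 0.976), Orai2, Rpl30, Rogdi and Matk (r = 0.929). These values describe the libraries; replicate libraries of a type share a source, so 14 points stand for 7 types. Between the members themselves, r ran up to 0.91 for Atp6v0d1 with Atp6v1b2 and down to -0.64 for Atp6v0a2 with Atp6v1g2, with -0.60 for Atp6v0a1 with Atp6v0a2 on the same 14 libraries.

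The transcription factors TFEB and TFE3, which switch on lysosomal genes, bind E-boxes with the core CACGTG. RefSeq promoter windows of 300 bases, 250 before and 50 after the start on GRCm38.p6, were at hand for 6 of the 10 members, in 9 windows. The Atp6v0a1 window, at chr11:101010148-101010447, covers neither transcript start given above, 101009452 or 101011821. The promoters at those starts were thus not searched. The core, which reads the same on both strands, was in 2 of the 9 member windows, those of Atp6v0d1 and Atp6v1a, against 7.15% of all 32851 windows; both also hold the longer TCACGTG, which includes the core and was found on either strand in 3.77% of windows. The 2 windows are printed with the core in capitals, since they are the only member windows with the core. Its first base lies 3 bases before the start in Atp6v0d1, at chr8:105566015-105566314 on the minus strand, and 131 bases before it in Atp6v1a, at chr16:44139210-44139509 on the minus strand. Over the 14 purified libraries these 2 genes correlated at r = 0.55, and neither is among the members with the sharpest differences between types.
Atp6v0d1: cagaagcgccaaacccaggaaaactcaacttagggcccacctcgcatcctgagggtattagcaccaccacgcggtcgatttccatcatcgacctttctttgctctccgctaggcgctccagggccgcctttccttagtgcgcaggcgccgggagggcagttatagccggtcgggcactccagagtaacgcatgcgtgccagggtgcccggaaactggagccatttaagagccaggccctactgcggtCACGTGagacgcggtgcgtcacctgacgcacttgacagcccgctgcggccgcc
Atp6v1a: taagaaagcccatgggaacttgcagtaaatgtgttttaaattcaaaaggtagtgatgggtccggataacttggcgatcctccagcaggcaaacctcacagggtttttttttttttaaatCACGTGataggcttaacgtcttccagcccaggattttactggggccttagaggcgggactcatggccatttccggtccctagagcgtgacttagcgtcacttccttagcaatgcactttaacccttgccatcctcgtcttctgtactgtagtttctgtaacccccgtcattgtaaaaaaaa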

How the data were processed

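RNA was measured as FPKM per gene and per RefSeq isoform, deposited by the authors with 0.1 as the lowest value. Per the submitters' processing notes, the tools were Cufflinks 1.3.0, Bowtie 0.12.7, TopHat 1.3.3 and CASAVA, with build mm9; depth per library is not given in the sources used here, so no counting error can be stated. Groups came from the sample labels. From the deposited FPKM, log2(FPKM + 1) of the 14011 genes at 1 FPKM or more in at least 2 libraries was fitted with limma 3.58.1 in R 4.3.3, with 1 mean per group and a trended prior variance; p-values were adjusted over all genes per comparison. Isoform use was tested with limma's diffSplice for genes summing to 5 FPKM or more and isoforms of at least 5% share. Shares were tested by exact permutation in Python 3.11.15. The scripts were tested on simulated data. Sequences were read from GENCODE M21 and RefSeq on GRCm38 by RefSeq ID or symbol; no mm9 coordinate was used. The members and lists were chosen with earlier results of these data known. All members and other subunits are named; of each further list, up to 4 genes with the largest difference in neurons or in microglia could be named. One gene that this rule names is not reported here. Alternatives were other pseudocounts, filters, scalings, prior variance, a replicate block and leaving out each library.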

Additional observations from a re-analysis of the deposited data

How the results depend on the processing

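With 2 libraries per type and depth unknown, small differences and low values are not resolved, and calls near the minimum log2 difference of 1 move with the settings. Under a common sum of FPKM, 6 members rose in neurons, 1 rose in microglia, 1 fell in astrocytes and 4 were higher in 1 type than in each other, where 27.5%, 10.5%, 9.86% and 25.3% of all genes were so. Median-of-ratios scaling moved the median of all genes by 0.28 in myelinating oligodendrocytes and by -0.29 in precursors, and 1 member, Atp6v1e1 at 1.04, rose in myelinating oligodendrocytes, where 10.6% of all genes did. With no minimum difference, 7 members rose in neurons, 6 rose and 2 fell in microglia, 7 fell in astrocytes, 2 rose in precursors, 2 rose and 2 fell in newly formed oligodendrocytes, 1 rose and 3 fell in myelinating oligodendrocytes, 5 fell in endothelial cells, 3 rose and 2 fell in whole cortex, 136 pair comparisons were called and 4 members were higher in 1 type than in each other. Of all genes, the shares were then 37.5% higher in neurons, 24.9% higher and 55.2% lower in microglia, 35.7% lower in astrocytes, 45.9% higher in precursors, 22.7% higher and 4207 of 14011 genes lower in newly formed oligodendrocytes, 12.6% higher and 66.3% lower in myelinating oligodendrocytes, 38.6% lower in endothelial cells, 49.3% higher and 10.6% lower in whole cortex, 62.6% of pair comparisons, and 37.7% higher in 1 type than in each other. The cause of these changes beyond the settings themselves was not tested.

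Changes of sign are listed for the neuron, microglia and whole cortex comparisons only, under settings that kept every library. Those of the other groups are not listed here. The values that turned round in these comparisons were all uncalled. Under a common sum these were -0.44 for Atp6v1a and -0.31 for Atp6v1e1 in microglia and 0.13 for Atp6v0d1 in whole cortex. Under median-of-ratios scaling they were -0.0195 for Atp6v1b2, -0.0806 for Atp6v1c1, -0.17 for Atp6v1e1 and -0.14 for Atp6v1h in whole cortex.

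Leaving out each library in turn gave 2 to 4 members higher in neurons and 0 to 1 higher in precursors. The counts higher in microglia, lower in astrocytes and between pairs of types moved as well. These ranges include fits that leave 1 library in the tested type, so their ends are not taken as calls. The share of all genes called was not computed for these fits, so the counts cannot be set against genes at large. The Tcirg1 share difference was 58.2 to 60.6 points and that of Atp6v1g2 34.4 to 37.4 points, with an exact permutation p of up to 0.154, where 1 library of the type is left and no smaller p is possible. Over the 7 type means, the differences of 59.4 and 35.9 points had an exact permutation p of 0.286, again the smallest possible. Without both precursor libraries, a choice made after seeing the data, 3 members rose in neurons and 4 in microglia. The share of all genes called in that fit was not computed, so these counts cannot be set against genes at large. Deviations of same-numbered libraries correlated at r = -0.25 to 0.73 over 21 pairs of types, over 0.1 in 6 of them and not in all, so the numbers were not taken to pair the samples; with a replicate block the counts kept their values, with 2 members higher in neurons and 3 in microglia.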
